A study of Mus musculus with 8 samples.

Results

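The genes of the E proteins and of their ID inhibitors were followed in germinal centre (GC) B cells parted by their level of MYC. The members are the 6 genes Tcf3, Tcf4, Tcf12, Id1, Id2 and Id3, taken by name. They were read through every probe set, a group of probes for transcripts of a gene, that the platform annotation assigns to a single member. This gave 19 probe sets of 45037 that are not array controls: 14 for the E protein genes and 5 for the Id genes. Of these, 18 passed the filter on low signal, a mean above 18.7 or the 40th percentile of all probe sets, and 1 for Tcf4 did not.

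E proteins are transcription factors with a basic helix-loop-helix domain. They bind DNA as pairs, at a short sequence called the E-box, and they start and keep up B cell identity. Tcf3 encodes E2A, Tcf4 encodes E2-2 and Tcf12 encodes HEB. ID proteins have the helix-loop-helix but lack the basic region that touches DNA, so an E protein bound to an ID protein cannot bind the E-box. The balance of E and ID proteins is known to set lymphocyte fate, and E protein activity is known to support the germinal centre.

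The cells came from spleens of 8-week-old GFPMYC mice on C57BL6, which carry a knocked-in reporter of GFP joined to MYC, 12 days after immunization with sheep red blood cells (SRBC). B cells were enriched on magnetic beads, GC B cells were sorted as PNAhi/CD95hi, and GFP divided them into 4 MYC-positive and 4 MYC-negative samples. All 8 samples carry the knock-in, so no sample shows wild-type mice, and each was hybridised to 1 Affymetrix mouse array after linear amplification. The descriptions name 4 pairs of a positive with a negative sample. The protocol speaks of each mouse and the design text of pools, and the sources do not settle if both samples of a pair came from 1 animal.

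The upstream sequences of Id2 and Id3 are shown because these Id genes had signals well above the filter and differences of opposite sign. Each is the stretch of 250 bases before the transcription start in RefSeq (GRCm38.p6), 5′ to 3′ along the gene. Capitals mark the E-box, written CANNTG, which reads the same pattern on both strands.
Id2 (chr12:25096093-25096342, minus strand): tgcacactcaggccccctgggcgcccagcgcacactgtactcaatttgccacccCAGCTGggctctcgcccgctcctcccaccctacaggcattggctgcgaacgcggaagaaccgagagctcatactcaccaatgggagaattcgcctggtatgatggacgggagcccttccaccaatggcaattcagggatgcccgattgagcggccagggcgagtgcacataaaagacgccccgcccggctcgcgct
Id3 (chr4:136143572-136143821, plus strand): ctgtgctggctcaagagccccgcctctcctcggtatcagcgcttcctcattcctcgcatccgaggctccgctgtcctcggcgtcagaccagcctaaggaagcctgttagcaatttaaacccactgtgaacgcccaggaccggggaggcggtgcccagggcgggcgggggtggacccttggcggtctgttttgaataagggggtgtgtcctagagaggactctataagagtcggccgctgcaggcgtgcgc
The Id2 stretch held 1 E-box, CAGCTG, 196 bases before the start, and the Id3 stretch held 0. Among 32851 upstream stretches of the same length, 66.2% held CANNTG and 13.0% held CAGCTG. The MYC-type E-box CACGTG, which also fits CANNTG, was in 0 of the stretches of Id2, Id3, Tcf3 and Tcf12 and in 6.02% of all stretches. CACCTG, or CAGGTG on the other strand, was in 0 of those member stretches and in 17.2% of all. These matches describe the letters in the window only. Upstream stretches were read for 4 of the 6 genes.

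Myc itself checked the sort labels: its geometric mean signal was 92.9 without and 663 with the GFPMYC gate, and the log2 difference ran from 2.58 to 3.44 over the 4 pairs. The arrays were scaled to a trimmed mean between 497 and 498, yet the median signal was lower on all MYC-positive arrays (28.2 to 39.7) than on MYC-negative ones (41.5 to 55.8). The median log2 difference of all 27022 probe sets tested was -0.23 on the deposited scale. Quantile normalization moved it to -0.013 and centring of the arrays on their medians to 0.21. Each difference given is the log2 value of the MYC-positive sample minus that of its MYC-negative partner, on the deposited scale. A value near -0.23 is that of the typical probe set, dim ones included. For genes read by their brightest kept probe set the median was -0.063, the closer background for the brightest probe sets of the members. A call means an adjusted p under 0.05 in limma with the pair as a block. Markers on the GC B cell list were well above the filter level of 18.7 in both groups, with S1pr2 at 5773 and 4602. Cd79b, a gene of B cells in general on that list, was at 11025 and 8996. The T cell genes Cd3e, Cd3d, Cd3g and Cd4 lay below the filter level. Of 2 T cell markers that passed the filter, Thy1 was called higher (14.5 to 73.6, a log2 difference of 2.34, limma adjusted p = 0.027) and Cd8a was at -0.52 (adjusted p = 0.65). Thy1 lay below the filter level in the MYC-negative samples, so it passed only through the MYC-positive ones. Of 7 GC B cell markers tested, 0 were called higher and 3 lower (0 and 7 at an unadjusted limma p under 0.05), with a median of -0.53. Of all genes tested, 10.7% were called higher and 10.5% lower. The markers called lower were Mybl1 (2213 to 507.5, limma adjusted p = 0.0019), Fas, the gene of CD95 (-0.61, 0.024), and Cd22 (-0.63, 0.025). No erythroid marker passed the filter. In bulk RNA, fewer cells of a type and less RNA per cell cannot be told apart.

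Id2 was higher in the MYC-positive fraction, and it was the only member gene with a called rise. By its brightest probe set (1435176_a_at) the signal was 765, 509, 902 and 948 in the MYC-negative samples of pairs 1 to 4. It was 1167, 1228, 1690 and 1873 in their MYC-positive partners. Every MYC-positive sample lay above every MYC-negative one. The log2 difference was 0.94 (SE 0.19, n = 4 pairs, limma adjusted p = 0.013), or 1.92-fold with a 95% interval from 1.43 to 2.59, and the rise was 0.61, 1.27, 0.91 and 0.98 in pairs 1 to 4.

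The second Id2 probe set (1422537_a_at) also rose, from 194, 162, 140 and 109 to 386, 375, 218 and 694. Its groups did not overlap, and its log2 difference was 1.38 (SE 0.37, adjusted p = 0.034), with the largest rise, 2.67, in pair 4. The third (1453596_at) was dim, with geometric means of 25.7 and 35.9. It was at 0.49 (SE 0.50, adjusted p = 0.52), higher in 3 of 4 pairs. Thus 2 of the 18 tested member probe sets were called higher, where 7.80% of all probe sets were, and the same 2 had groups that did not overlap, where 8.27% of all did.

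Both Id2 calls ended without pair 1 (adjusted p = 0.062 and 0.11) and without pair 2 (0.076 and 0.095). The calls held after quantile normalization, at 1.01 and 1.68, and after median centring, at 1.38 and 1.82. Macrophages and dendritic cells are also known to express Id2. Of 9 macrophage and monocyte markers tested, 6 were called higher and 0 lower (7 and 0 at an unadjusted limma p under 0.05), with a median difference of 3.40. The summed signal of all 12 genes of that list was 381 to 885 in the MYC-negative samples and 1068 to 7400 in the MYC-positive ones, with log2 differences of 3.06, 2.71, 1.13 and 2.77 in pairs 1 to 4. In the MYC-negative samples, C1qa, C1qc, Csf1r and Fcgr1 of the tested markers were below the filter level, while Cd68 was at 241, Lyz2 at 78.6, Adgre1 at 42.8, Cd5l at 39.4 and C1qb at 28.3. C1qa, C1qc, Csf1r and Fcgr1 thus passed the filter, a mean over all arrays, only through the MYC-positive samples. A marker this low could be tested only if it rose, so the count called and the median lean upward. The part of macrophage RNA in the Id2 difference was not tested. The dendritic cell markers had 0 called of 5 tested (1 higher and 0 lower at an unadjusted p under 0.05) and a median of -0.30, with sums of 734 to 1415 and 835 to 1787. Of 2 NK and innate lymphoid markers tested, 1 was called higher, Il2rb (1.42, adjusted p = 0.048), and Prf1 was at -0.83 (adjusted p = 0.073), lower in 4 of 4 pairs. At an unadjusted limma p under 0.05 the counts were 1 higher and 1 lower, and the sum of their list was 210 to 628 and 173 to 615. Ncr1, Klrd1, Gzma and Nkg7 were below the filter level in both groups.

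Id3 pointed the other way and did not pass the test. Its only probe set read 769, 946, 721 and 625 in the MYC-negative samples and 523, 445, 316 and 719 in the MYC-positive ones. It was lower in pairs 1 to 3, by 0.56, 1.09 and 1.19, and 0.20 higher in pair 4, so the groups overlapped. The log2 difference was -0.66 (SE 0.27, limma adjusted p = 0.12, 95% interval -1.29 to -0.030). Without pair 4 it was -0.95 and passed (adjusted p = 0.0062), and after median centring it was -0.22 (adjusted p = 0.61).

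Id3 is known to be abundant in resting B cells, and the naive B cell markers on the array were examined beside it. The summed signal of this list, in which Fcer2a, Ccr7 and Klf2 passed the filter, differed by -0.64, -0.78, -1.11 and 0.93 in pairs 1 to 4, with sums from 500 to 1743 in the MYC-negative and from 477 to 1014 in the MYC-positive samples. This sum and Id3 were positive in pair 4 only, as were Tcf3 (0.64 in pair 4) and Cd79a (0.22), a B cell gene not limited to GC cells. A sign shared over pairs cannot tell the sources of RNA apart. Of the 3 naive markers tested 0 were called in either direction (0 higher and 1 lower at an unadjusted limma p under 0.05), with Klf2 at -1.59 (adjusted p = 0.052), Fcer2a at -0.35 (0.42) and Ccr7 at 0.99 (0.19). Endothelial and stromal cells are also known to express Id3, and the summed signal of their markers differed by -1.20, -0.82, -0.77 and -0.70 in pairs 1 to 4. Pecam1 was the brightest of these markers in the MYC-negative samples, at 170, and was at 43.5 in the MYC-positive ones. The other markers tested, Cdh5, Kdr and Pdgfrb, were not called (limma adjusted p = 0.52, 0.39 and 0.56). The part of naive B cell or stromal RNA in the Id3 difference was not tested.

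Id1 was close to the filter level in both groups. Its signal was 39.0, 26.6, 43.5 and 39.8 in the MYC-negative samples and 24.9, 20.0, 31.0 and 14.5 in the MYC-positive ones. It was lower in 4 of 4 pairs, but the groups overlapped and the difference of -0.75 (SE 0.45, adjusted p = 0.26) did not pass. Endothelial and stromal cells are known to express Id1 too. Of 4 of their markers tested, 1 was called lower, Pecam1 (-1.97), and 0 higher (1 lower and 0 higher at an unadjusted limma p under 0.05), and the summed signal of their list was 343 to 497 without and 186 to 292 with MYC. Its part in the Id1 values was not tested. Id4, the remaining family member, was below the filter level (15.7 and 7.27) and was not tested.

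**Figure D1:**
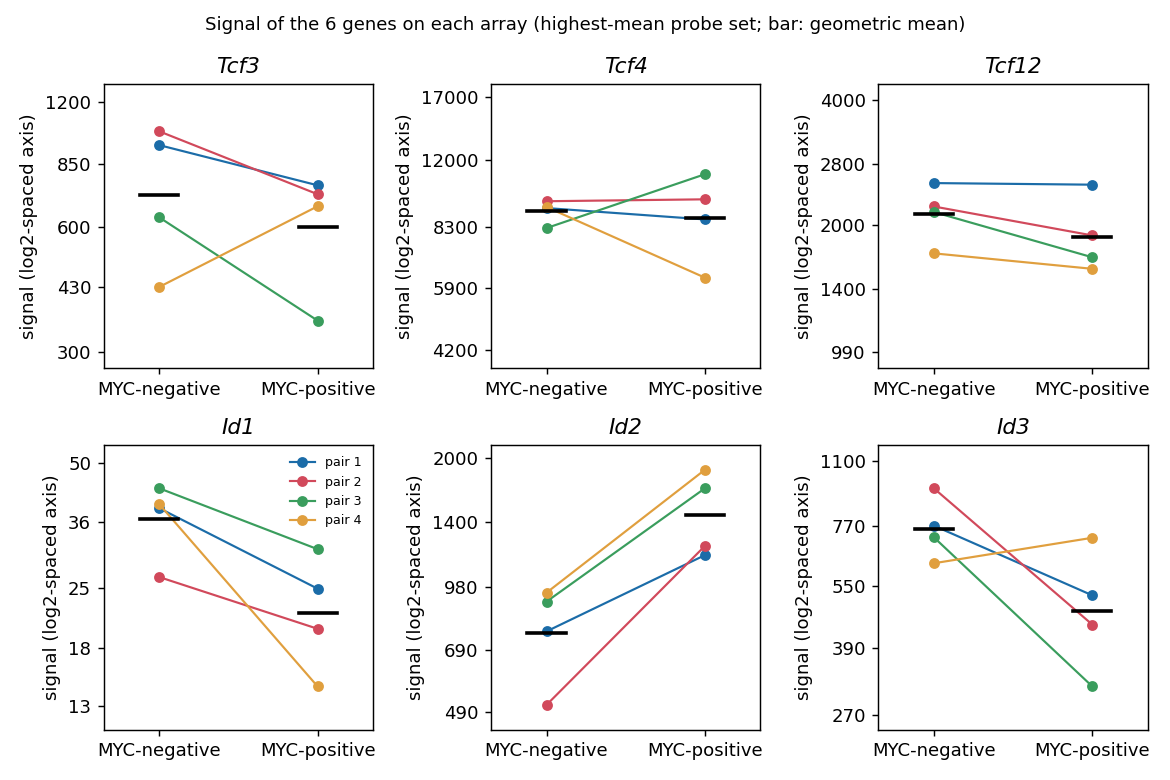
Signal of the highest-mean probe set of each gene on each array, on log2-spaced axes, with a line joining the samples of a pair and a black bar at the geometric mean of each group. Id2 rose in all 4 pairs, from a geometric mean of 760 to 1460, while Id3 and Tcf3 were lower in pairs 1 to 3 and higher in pair 4.

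Among the E protein genes, Tcf4 gave no call. Its brightest probe set (1416723_at) read 9208, 9564, 8242 and 9260 in the MYC-negative samples and 8646, 9665, 11107 and 6262 in the MYC-positive ones. The samples overlapped, with the highest and the lowest value both in the MYC-positive group. The log2 difference was -0.052 (SE 0.16, adjusted p = 0.85), with a 95% interval from -0.42 to 0.32, and the sign turned after median centring (0.39) and without pair 4 (0.12).

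The 4 other kept Tcf4 probe sets lay between -0.20 and 0.15, and 0 of the 5 were called. At an unadjusted limma p under 0.05 the count was also 0. The sixth (1416725_at) had a mean below the filter and was not tested. Its signal was 1.16, 28.1, 23.5 and 3.33 in the MYC-negative samples and 21.0, 25.3, 27.5 and 4.32 in the MYC-positive ones, which spans nearly the whole range within each group.

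Tcf3, the gene of the factor most tied to B cell commitment, read 943, 1018, 632 and 430 in MYC-negative samples and 755, 719, 357 and 672 in MYC-positive ones (1426297_at). The groups overlapped. Tcf3 was lower by 0.32, 0.50 and 0.83 in pairs 1 to 3 and higher by 0.64 in pair 4, as with Id3. The mean difference was -0.25 (SE 0.27, adjusted p = 0.54, 95% interval -0.87 to 0.37). It was -0.55 without pair 4 (adjusted p = 0.054) and 0.19 after median centring (adjusted p = 0.66). The other Tcf3 probe sets were at -0.58 (adjusted p = 0.22, lower in 4 of 4 pairs) and -0.55 (adjusted p = 0.55), and 0 of 3 passed, also at an unadjusted limma p under 0.05.

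The probe sets of Tcf12 disagreed. The brightest (1427670_a_at) read 2522, 2215, 2148 and 1709 in the MYC-negative samples and 2500, 1887, 1672 and 1568 in the MYC-positive ones, with overlapping groups. Its difference of -0.18 (SE 0.15, adjusted p = 0.41, 95% interval -0.53 to 0.16) was lower in 4 of 4 pairs, and it was 0.26 after median centring. A dimmer probe set (1439619_at) read 537, 387, 419 and 511 against 206, 293, 213 and 52.0. Here every MYC-positive sample lay below every MYC-negative one.

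That probe set was called lower, at -1.51 (SE 0.45, limma adjusted p = 0.047), with differences of -1.38, -0.40, -0.98 and -3.30 in pairs 1 to 4. It was the only member probe set called lower, of 18 tested, where 13.6% of all probe sets were, and the only one without overlap in that direction, where 14.8% of all were. The call ended without pair 1, 2 or 3 (adjusted p = 0.16, 0.059 and 0.076), after quantile normalization (-1.15, adjusted p = 0.092), after median centring (-1.07, 0.091) and with no pair block (adjusted p = 0.058). Without pair 4 the difference was -0.92 (adjusted p = 0.021).

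The remaining Tcf12 probe sets were at 0.011 (1421908_a_at, adjusted p = 0.99), -2.24 (1439209_at, 0.18) and -0.56 (1446294_at, 0.36). The widest spread was that of 1439209_at, with signals of 178, 131, 132 and 201 in the MYC-negative samples and 56.7, 64.4, 238 and 1.42 in the MYC-positive ones. Over the kept probe sets together the mean Tcf12 difference was -0.90 (adjusted p = 0.14), against -0.18 for the brightest alone, and it was -0.35 without pair 4. The files do not say which transcript end or splice form each probe set reads.

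**Figure D2:**
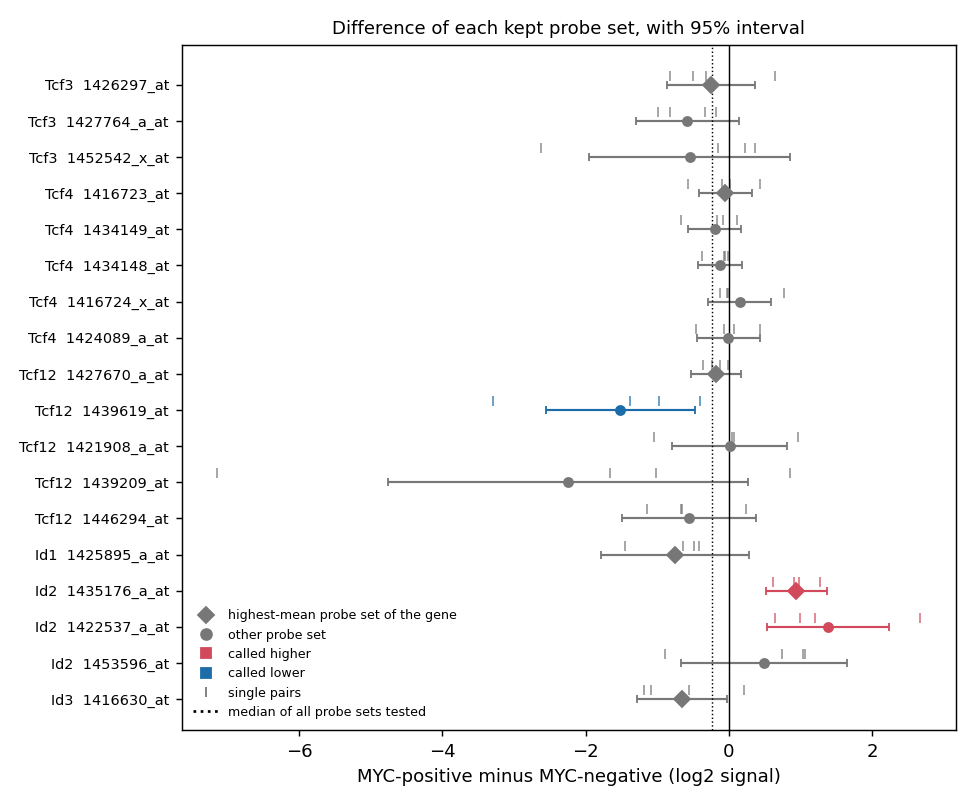
MYC-positive minus MYC-negative log2 signal of the 18 kept probe sets, with the limma 95% interval and ticks for the single pairs. The dotted line at -0.23 is the median of all probe sets tested, while the median over the brightest kept probe set of each gene was -0.063. The 2 called higher are both of Id2, and the 1 called lower is of Tcf12, whose brightest probe set lies near the dotted line.

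E protein genes were then set against Id genes within each pair, by the brightest probe set of each gene. The mean difference of Tcf3, Tcf4 and Tcf12 was -0.14, -0.24, -0.25 and -0.014 in pairs 1 to 4, and that of Id1, Id2 and Id3 was -0.20, -0.077, -0.26 and -0.090. The gap, E minus ID, was -0.0065 ± 0.11 (SD, n = 4 pairs), with 1 pair below 0 and 3 above. Id1 weighed as much in the ID mean as Id2 or Id3, though it was close to the filter level (geometric means of 36.6 and 21.8). The gap thus rests in part on a dim probe set, and it was -0.099 with log2(signal + 16). By construction the gap does not move with centring, but it was -0.22 after quantile normalization and -0.31 ± 0.39 (SD, n = 4 pairs) with the mean over each gene's kept probe sets. The latter was -0.12 without pair 4, where the Tcf12 probe set 1439209_at differed by -7.15. As the genes were chosen with earlier results known, no p is given for these means.

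The ID mean joined unlike members. Id2 exceeded Id3 by 1.17, 2.36, 2.10 and 0.78 in pairs 1 to 4 (1.60 ± 0.75, SD, n = 4 pairs), measured as the gap between their log2 differences. It exceeded Id1 by 1.25 to 2.44 and the E protein mean by 0.75 to 1.51. Id2 thus lay above each of these in 4 of 4 pairs. Id3 lay below the E protein mean in pairs 1 to 3, by 0.42, 0.85 and 0.94, and 0.22 above it in pair 4.

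**Figure D3:**
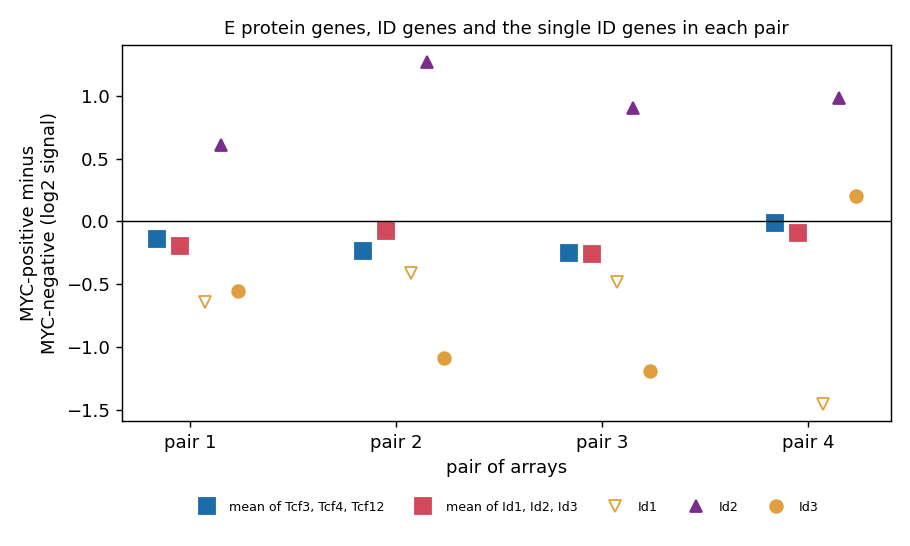
Log2 difference in each pair for the mean of the 3 E protein genes, the mean of the 3 Id genes, and Id1, Id2 and Id3 singly. The squares of both families stay between -0.26 and -0.014, while Id2 lies between 0.61 and 1.27 in every pair.

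Genes around the network were read from 4 lists with 65 entries, of which 51 genes were tested, each by its brightest kept probe set, and 4 were called higher and 6 lower. Of all 11754 genes tested, 10.7% were called higher and 10.5% lower, with a median of -0.063. Of 12 genes of other E protein partners and cofactors, 1 was called higher and 3 lower (1 and 4 at an unadjusted limma p under 0.05), with a median of -0.19. Bhlha15, which encodes the secretory-cell factor MIST1, a dimer partner of E proteins, was 1.80 higher (SE 0.48, adjusted p = 0.032), from a signal of 28.1 to 98.2. Its call ended without pair 1 (adjusted p = 0.16), without pair 2 (0.12) and with no filter (0.056). Plasma cells are known to express Bhlha15. Of 5 plasma cell markers tested, 2 were called higher, Irf4 and Sdc1, and 0 lower (2 and 0 at an unadjusted limma p under 0.05). Jchain, the brightest of them, was at 0.020 (limma adjusted p = 0.93), from a signal of 14219 to 14417. Prdm1 was at 0.54 (0.26) and Xbp1 at 0.35 (0.18). The part of plasma cell RNA in the Bhlha15 difference was not tested.

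The partner genes called lower were Ep300, Kat2b and Lmo2. Ep300, the gene of the acetyltransferase that E proteins recruit, was at -1.04 (SE 0.25, adjusted p = 0.025), and Kat2b, another acetyltransferase gene, at -0.98 (SE 0.19, adjusted p = 0.012). Lmo2, which encodes a LIM-only protein that links E protein dimers to other factors, was at -0.48 (SE 0.13, adjusted p = 0.038). The Lmo2 call ended after median centring (-0.037, adjusted p = 0.90), without pair 1, 2 or 3 (adjusted p = 0.18, 0.17 and 0.058), with no filter (0.061) and with no pair block (0.057). Ep300 and Kat2b did not pass after median centring, at -0.60 and -0.54, nor without pair 1 (adjusted p = 0.13 and 0.063). With no pair block Ep300 had adjusted p = 0.089. Kat2b also did not pass without pair 2 (adjusted p = 0.050). The haematopoietic partner gene Lyl1 was at 0.060 (SE 0.35, adjusted p = 0.92), and Tal1 and Tal2 were below the filter level.

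Signals known to switch on Id genes come from BMP and TGF-beta receptors through SMAD proteins, and from EGR factors. Of 14 such genes tested, 0 were called higher and 1 lower (1 and 3 at an unadjusted limma p under 0.05), with a median of -0.10. Tgfbr2, a TGF-beta receptor gene, was at -0.85 (SE 0.14, adjusted p = 0.0076), with a signal of 2741 in the MYC-negative samples and 1516 in the MYC-positive ones. It did not pass without pair 1 (adjusted p = 0.067), without pair 2 (0.053) or after median centring (-0.41, adjusted p = 0.12). Smad1, which transmits BMP signals, was at 0.055 (SE 0.13, adjusted p = 0.79), and 2 of its 3 kept probe sets had the opposite sign. The inhibitory SMAD gene Smad7 was at -0.72 (SE 0.27, adjusted p = 0.091). Egr1 was at -0.53 (adjusted p = 0.058), Egr2 at 0.33 (0.24) and Egr3 at 0.44 (0.13), each with the same sign in 4 of 4 pairs.

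Of 6 genes for proteins that stabilise or degrade E or ID proteins, 1 was called higher and 0 lower (1 and 0 at an unadjusted limma p under 0.05), with a median of 0.19. It was Cops5, a COP9 signalosome subunit gene, at 0.73 (SE 0.13, adjusted p = 0.0094). Its other kept probe set had the opposite sign, and the mean over both was 0.14 (adjusted p = 0.62). The call also ended without pair 1 (adjusted p = 0.080). Usp1, whose product removes ubiquitin from ID proteins, was at 0.27 (SE 0.16, adjusted p = 0.24), and 1 of its 3 kept probe sets had the opposite sign.

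Genes described as controlled by E proteins were called about as often as all genes tested, of which 10.7% were called higher and 10.5% lower. Of 19 tested, 2 were called higher and 2 lower (2 and 7 at an unadjusted limma p under 0.05), with a median of -0.29. The lower genes encode B-lineage factors: Foxo1 at -1.04 (SE 0.14, adjusted p = 0.0040), from a signal of 3204 to 1559, and the dim Pax5 at -1.75 (SE 0.39, adjusted p = 0.018), from 148 to 44.2. Ebf1, the early B cell factor gene, was at -0.17 (SE 0.13, adjusted p = 0.38), and Cd79a at -0.53 (SE 0.21, adjusted p = 0.11). Without pair 1, Foxo1 had adjusted p = 0.051 and Pax5 0.079, and Pax5 did not pass without pair 2 (0.060), without pair 3 (0.059) or with no pair block (0.17).

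The higher genes were Socs3, a cytokine signalling inhibitor gene, at 2.43 (SE 0.32, adjusted p = 0.0036), from a signal of 118 to 636, and Cdk6, a G1 kinase gene, at 0.87 (SE 0.25, adjusted p = 0.043, higher in 3 of 4 pairs). The Cdk6 call ended without pair 1, 2 or 3 (adjusted p = 0.16, 0.19 and 0.13), with no filter (0.056) and with no pair block (0.15). Socs3 passed under all 13 alternatives, with values from 2.13 to 2.87. Ccnd3, a cyclin gene, was at 0.63 (adjusted p = 0.17), with its 2 other probe sets of opposite sign. Ptpn6, the phosphatase gene of SHP-1, was at -0.52 (SE 0.16, adjusted p = 0.053, lower in 4 of 4 pairs). Rag1, Rag2, Vpreb1 and Il7r were below the filter level in both groups.

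**Figure D4:**
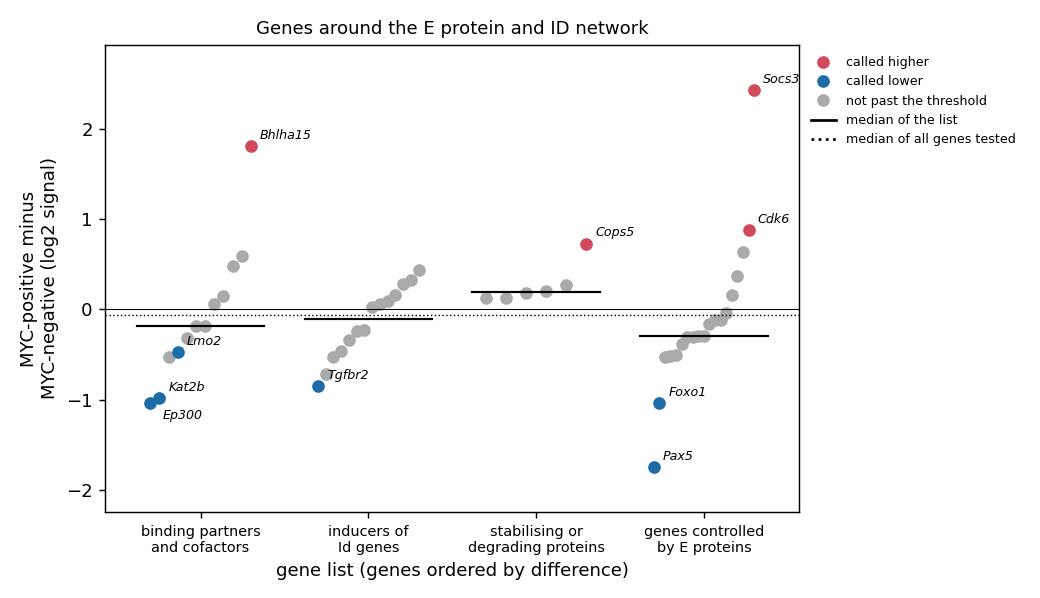
MYC-positive minus MYC-negative log2 signal of the tested genes of each list, by the brightest kept probe set, with called genes named, a bar at each list's median and a dotted line at the median of all genes (-0.063). The called genes of the list controlled by E proteins run from -1.75 for Pax5 to 2.43 for Socs3.

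The genes whose log2 signal followed each member most closely over the 8 arrays were found by Pearson's r, as a description. For Id2 they were Mreg, St6galnac2 and Mettl5 (r = 0.97, 0.97 and 0.96), with differences of 1.36, 1.34 and 1.38. Mreg encodes melanoregulin, St6galnac2 a sialyltransferase and Mettl5 a methyltransferase of ribosomal RNA, and all 3 genes were called higher. For Id3 they were Rhoh, a GTPase gene of blood cells, the oxidase chaperone gene Cybc1 and the proton channel gene Hvcn1 (r = 0.99, 0.98 and 0.98), at -0.43, -0.85 and -0.69, and 0 of these were called.

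For Tcf3 they were Macroh2a1, Top2a and Sptan1 (r between 0.987 and 0.991), the first a histone variant gene and the second a topoisomerase gene of dividing cells. For Tcf4 they were Sel1l, Foxj3 and Dync1li2 (r between 0.968 and 0.974), and for Tcf12 Fbxo44, Stim2 and Aff1 (r between 0.973 and 0.978). For Id1 they were 1700096K18Rik, Pds5a and Zfp207 (r between 0.974 and 0.979). The arrays share their group, pair and scaling, and they fall into the sorted groups, so these values do not separate the sort from other differences between arrays.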

How the data were processed

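Signal intensity per probe set, on a linear scale, is what the authors deposited for 8 arrays, and MAS5 is the tool the submitters' processing notes name, with its version, detection calls and scaling target not given in the sources used here. Genes came from the platform annotation: 34958 of 45056 probe sets had 1 gene symbol, 932 several and 9160 non-control ones none, and 19 were controls. Lookup by gene identifier changed 0 symbols.

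The deposited signals were raised to a floor of 1 and put on the log2 scale. A mean log2 over all arrays above the 40th percentile, a signal of 18.7, was required, which left 27022 probe sets. limma 3.58.1 in R 4.3.3 fitted group with pair as a block (lmFit, eBayes with an intensity trend, 2-sided) on 3 residual degrees of freedom, and p-values were adjusted by Benjamini-Hochberg over all 27022. A gene was read by its highest-mean kept probe set (11754 genes). Pairs follow the sample descriptions, while the titles number the MYC-negative replicates 1 to 4 and the MYC-positive ones 4 to 7. Deviations from the group means correlated at 0.26, 0.17, 0.088 and 0.12 in pairs 1 to 4. The stated partner was not the best match for the MYC-positive arrays of pairs 2 and 3 or the MYC-negative array of pair 4. Where a pair is not a separate animal, the p-values cover the spread of these samples alone, which may be technical. The number of arrays limits the precision.

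Members, lists and tests were chosen with earlier results of these data known. Named genes are the members, Myc, the 3 largest called genes of each list with the same sign in 4 pairs, and the 3 genes most like each member. Lmo2, Cdk6 and the other list and marker genes named were chosen after their values were seen. Sequences are RefSeq's (GRCm38.p6). The alternatives were other filters, scalings, pseudocounts, summaries and blocks, and each pair left out. Those for Lmo2 and Cdk6, and the probe set mean with a pair left out, were chosen after seeing the data.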

Additional observations from a re-analysis of the deposited data

Results flagged for a closer look

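In 68 groups of 4 values examined, 7 had a sample far from the other 3 by Dixon's criterion, and chance alone flags about 1 in 20 such groups. Tcf3 (1426297_at) had a log2 signal of 8.48 in the MYC-positive sample of pair 3, where the next lowest was 9.39. Tcf4 (1416724_x_at) was lowest in the same sample, at 10.6, with the next at 11.1, and its difference of 0.76 in pair 4 stood apart from the other pairs, the nearest being -0.019. Tcf4 (1434148_at) had its lowest difference in pair 4, -0.38, against -0.069 for the nearest. The untested Tcf4 probe set (1416725_at) had a log2 signal of 2.11 in the MYC-positive sample of pair 4 and a difference of 4.18 in pair 1, against 4.39 and 0.37 for the nearest. Id2 (1453596_at) had a difference of -0.89 in pair 3, with the nearest at 0.74.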

How the results depend on the processing

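Of 205 values of kept member probe sets under alternatives, 176 kept their direction and their side of the threshold, 13 lost a call, 1 gained one and 15 turned direction, the last all in E protein probe sets that were not called. After median centring Tcf3 (1426297_at) was at 0.19, Tcf12 (1427670_a_at) at 0.26, and the Tcf4 probe sets 1416723_at, 1434149_at, 1434148_at and 1424089_a_at at 0.39, 0.24, 0.31 and 0.43. The last was at 0.033 after quantile normalization. With each pair left out in turn, Tcf3 (1452542_x_at) ran from -0.85 to 0.14, Tcf4 from -0.21 to 0.12 (1416723_at), -0.057 to 0.24 (1416724_x_at) and -0.15 to 0.15 (1424089_a_at), and Tcf12 (1421908_a_at) from -0.31 to 0.36. The count of member probe sets called higher by limma, 2, was 1 with no intensity trend and 0 to 2 with a pair left out (2 at an unadjusted p under 0.05 in each). The count called lower, 1, was 0 with no filter, after quantile normalization, after median centring, with no pair block and with no trend (2, 1, 1, 2 and 3 at an unadjusted p under 0.05), and 0 to 2 with a pair left out (1 to 4 unadjusted). Of the genes in the lists, 4 were called higher, which became 2 with no filter, 9 after median centring, 1 with no trend and 1 to 7 with a pair left out. The 6 called lower became 16 after quantile normalization, 2 after median centring, 3 with no pair block, 3 with no trend, 12 with the mean over probe sets and 0 to 8 with a pair left out (9 to 12 unadjusted). The gap of E minus ID genes was -0.22 after quantile normalization and -0.31 with the mean over probe sets, the latter -0.34, -0.37, -0.41 and -0.12 without pairs 1, 2, 3 and 4 (added after seeing the data). Over all probe sets, 2109 were called higher and 3675 lower, 2747 and 2693 after quantile normalization, 5038 and 1657 after median centring, 2351 and 4605 with log2(signal + 16), 1828 and 3066 with no filter, 1596 and 2309 with no pair block, 894 and 1892 with no trend, and 342 to 2854 and 408 to 5303 with a pair left out, the fewest without pair 1. The cause of these changes was not tested. Without the intensity trend the calls of Id2 (1422537_a_at), Tcf12 (1439619_at), Bhlha15, Ep300, Kat2b, Cops5, Lmo2 and Cdk6 were lost, with limma adjusted p = 0.073, 0.10, 0.053, 0.090, 0.054, 0.067, 0.15 and 0.11. Of 128 values of the called list genes, 92 kept their call and 36 lost it. Dim probe sets (Id1, 1453596_at, 1452542_x_at) lie near the filter, which limits what their values can show.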
